A study of Rattus norvegicus with 8 samples.

Results

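Ramp2 and Hbb-b1 are genes of the vessel endothelium and of the blood. Each was read by 1 probe on arrays of rat inguinal white adipose tissue, a subcutaneous fat depot of the groin. They were picked by probe number and gene role. The file gives the Ramp2 probe the transcript identifier NM_031646.1 and the Hbb-b1 probe NM_198776.1. These are 2 of 26857 probes, and 2 of the 12 genes that could be named among the 16114 probes above the intensity filter. The choice was made with their signal levels and diet differences on these arrays known, so both are given as a description and support nothing by themselves. Whether the pair moved together from array to array was not among those values.

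The MR group were male Fischer 344 rats fed a methionine-restricted purified amino acid diet with 0.172% DL-methionine, and the CON group were males of the same strain on the same type of diet with 0.86%. All rats ate a standard rodent chow until 32 days of age and then stayed on their diet for 20 months. Fischer 344 is an inbred laboratory strain, and methionine is an essential amino acid that contains sulfur. Each diet was represented by 4 single-colour arrays of RNA that the series description calls pooled. How many rats stand behind an array is not told by the labels, so every p-value measures no more than the spread from array to array, which may be technical. Values are deposited normalized signals, taken to be on a log2 scale, and every array had a median of 9.37.

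RAMP2 is a small membrane protein that pairs with the calcitonin receptor-like receptor. The pair forms a receptor for adrenomedullin, a peptide that widens vessels and keeps the endothelial barrier tight. In most tissues the transcript is found mainly in endothelial cells of blood and lymph vessels. Hbb-b1 encodes a beta chain of haemoglobin, the oxygen carrier of red cells. Its transcript is made by red cell precursors and persists in young circulating red cells, so in a piece of fat it comes largely with the blood left in the vessels. In RNA from whole tissue, fewer cells of a type and less RNA per cell cannot be told apart.

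Rat beta chains are encoded by a cluster of similar genes. In the RefSeq table of the GRCr8 assembly, used for names and order, Hbb-bs, Hbb-b1, Hbbl1, Hbb-b2 and Hbb follow each other on chromosome 1. The stretch just upstream of the start of 4 of them is shown because it lets a reader see how alike the copies are there. Each line runs 5′ to 3′ from base 160 to base 61 before the start site in RefSeq's GRCr8 annotation. Capitals mark CACCC and CCAAT on either strand, the letters of elements known from beta-globin promoters; no match overlaps another.
Hbb-b1 (chr1:167643581-167643680, minus strand): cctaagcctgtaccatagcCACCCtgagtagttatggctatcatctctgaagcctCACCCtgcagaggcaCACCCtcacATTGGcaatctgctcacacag
Hbb-b2 (chr1:167657024-167657123, minus strand): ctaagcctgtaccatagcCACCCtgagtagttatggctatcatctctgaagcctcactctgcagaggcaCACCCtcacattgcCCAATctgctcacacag
Hbb-bs (chr1:167631691-167631790, minus strand): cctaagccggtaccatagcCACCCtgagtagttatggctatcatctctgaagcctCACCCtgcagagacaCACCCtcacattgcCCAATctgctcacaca
Hbb (chr1:167663782-167663881, minus strand): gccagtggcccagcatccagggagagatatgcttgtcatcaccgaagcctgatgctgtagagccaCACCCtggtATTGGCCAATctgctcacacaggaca

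Over the 250 bases before the start, Hbb-b1 was identical to Hbb-b2 at 97.2% of aligned positions. Its identity was 93.6% to Hbb-bs and 61.8% to Hbb. Every one of the 4 windows held CACCC and CCAAT on one strand or the other. Of all 33469 RefSeq windows of the same place and 100 bases, 24.9% held CACCC and 17.1% CCAAT. Over the full 250 bases, where the 4 genes had no further match, these shares were 49.2% and 34.0%. Hbb-b1, Hbb-b2 and Hbb-bs are so alike that their matches are not separate observations. In Hbb-b1 CCAAT was matched only on the opposite strand, as ATTGG, while Hbb-b2 and Hbb-bs held it as CCAAT and Hbb held both. These matches describe letters only. The identities are of bases before the transcript starts, and the likeness of the transcripts was not measured. Probe sequences were not used here, so it is not known which of the copies the Hbb-b1 probe reads. The signal is given as that of the probe annotated Hbb-b1. RefSeq promoter entries were matched for Hbb-b1, Hbb-b2, Hbb-bs and Hbb, and not for Ramp2.

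Ramp2 lay at a log2 signal of 14.84, 15.01, 14.67 and 13.95 in MR replicates 1 to 4, against 16.17, 14.92, 16.09 and 15.05 in CON replicates 1 to 4. MR replicates 1 to 3 lay close together with replicate 4 below them, while CON replicates 1 and 3 stood more than 1 log2 unit above CON replicates 2 and 4. The diets overlapped through MR replicate 2 and CON replicate 2, and an MR array lay below a CON array in 15 of the 16 possible pairs. Means were 14.62 ± 0.47 in MR and 15.56 ± 0.67 in CON (SD, n = 4 each).

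Hbb-b1 was among the brightest signals on every array. Its log2 signal was 19.41, 19.17, 19.42 and 19.53 in MR replicates 1 to 4, against 19.38, 20.56, 20.62 and 19.78 in CON replicates 1 to 4. The MR arrays fell close together, and the CON arrays ran from within the MR range to more than 1 log2 unit above it. CON replicate 1 lay below 3 of the 4 MR arrays, so the diets overlapped, and an MR array lay below a CON array in 13 of 16 pairs. Means were 19.38 ± 0.15 in MR and 20.08 ± 0.60 in CON (SD, n = 4 each).

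**Figure D1:**
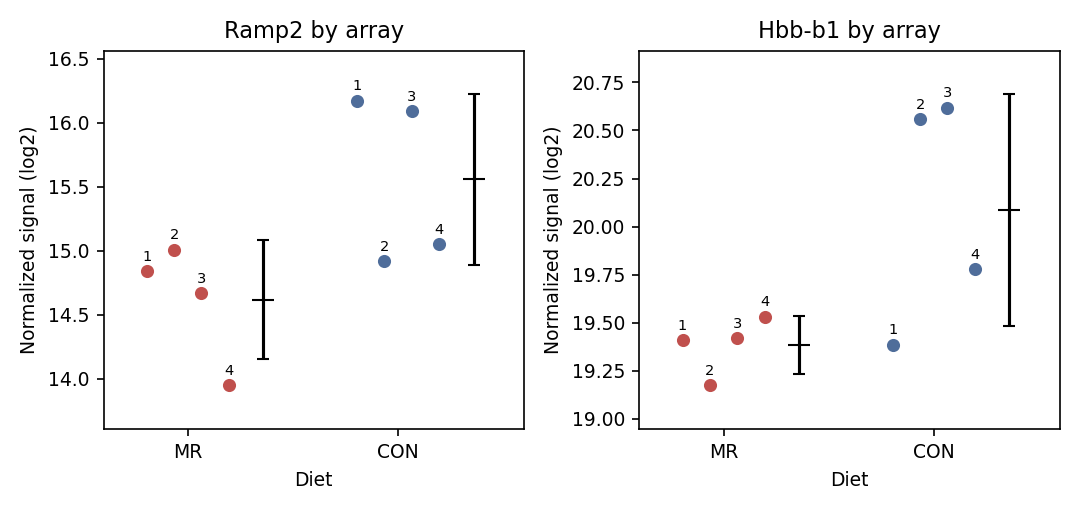
Normalized log2 signal of Ramp2 (left) and Hbb-b1 (right) on each array, with MR and CON on the horizontal axis, the replicate number above each point and the mean ± SD of 4 arrays beside it. The highest Ramp2 signals are CON replicates 1 and 3 (16.17 and 16.09), and the highest Hbb-b1 signals CON replicates 3 and 2 (20.62 and 20.56).

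Among all probes of an array, counted from the brightest, Ramp2 ranked 1878, 1701, 2067 and 3035 in MR replicates 1 to 4. Its ranks in CON replicates 1 to 4 were 834, 1796, 879 and 1662. By its mean over the 8 arrays it ranked 1545, within the top 5.75%. Hbb-b1 ranked 87, 103, 86 and 75 in MR replicates 1 to 4, against 89, 13, 10 and 56 in CON replicates 1 to 4, and 52 by its mean, within the top 0.194%. A rank compares the brightness of probes and does not order the amounts of the transcripts. Because all arrays had nearly the same set of values, the signal of a probe here follows its rank, and the top of the scale was 21.29.

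The spread of Hbb-b1 differed between the diets more than that of Ramp2. Its range was 0.36 in MR and 1.23 in CON, and its SD in CON was 4.03 times that in MR. A ratio at least this large was found in 7.33% of tested probes and in 24.5% of the 200 tested probes nearest to it in mean signal. Those 200 probes ran from 18.18 to 20.89 in mean log2 signal, while the 200 nearest to Ramp2 ran only from 14.98 to 15.19. The SD of Ramp2 in CON was 1.43 times that in MR, where the median ratio over all tested probes was 1.07. At least as large a ratio was found in 37.2% of tested probes and in most of the 200 probes nearest to Ramp2. The ratio of Ramp2 was thus not unusual for its signal. Pooled over the diets, the SD of Ramp2 was 0.57, larger than that of 80.5% of its 200 nearest probes in signal, whose median was 0.37. For Hbb-b1 it was 0.44, larger than that of 59.5% of its nearest probes, whose median was 0.40. With 4 arrays a diet these ratios were not tested.

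In the limma fit over 16114 probes the difference of MR minus CON was -0.94 for Ramp2 (SE 0.35, 95% confidence interval -1.72 to -0.16, limma adjusted p = 0.147). If the base of the logarithm is 2, this is 0.521 times the CON signal in MR (interval 0.304 to 0.894). For Hbb-b1 the difference was -0.70 (SE 0.33, interval -1.44 to 0.04, limma adjusted p = 0.231), or 0.615 times the CON signal in MR (interval 0.368 to 1.03). At an adjusted p under 0.05, 0 of the 2 genes were called, beside 2.14% of tested probes in either direction and 1.34% lower in MR, and nothing is read from that count. Before adjustment, the limma p across all genes was 0.0225 for Ramp2 and 0.0611 for Hbb-b1, in a fit where 23.9% of all probes tested lay under 0.05 without adjustment. Every MR array lay below every CON array for 0 of the 2 genes, beside 8.74% of tested probes. The limma adjusted p-values of 0.147 and 0.231 were adjusted over all tested probes, and those before adjustment were not.

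Both differences had the sign of 53.3% of tested probes, and the median difference of all tested probes was -0.06. A difference as low as that of Ramp2 was seen in 12.0% of tested probes and in 6.0% of its 200 nearest probes in signal. For Hbb-b1 the shares were 18.8% of tested probes and 8.5% of its nearest probes, which covered a wider range of signal. The 102 other probes that by their mean were as bright as the dimmest rank of Hbb-b1 had a median difference of 0.13, and 35 of them were lower in MR by their means.

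**Figure D2:**
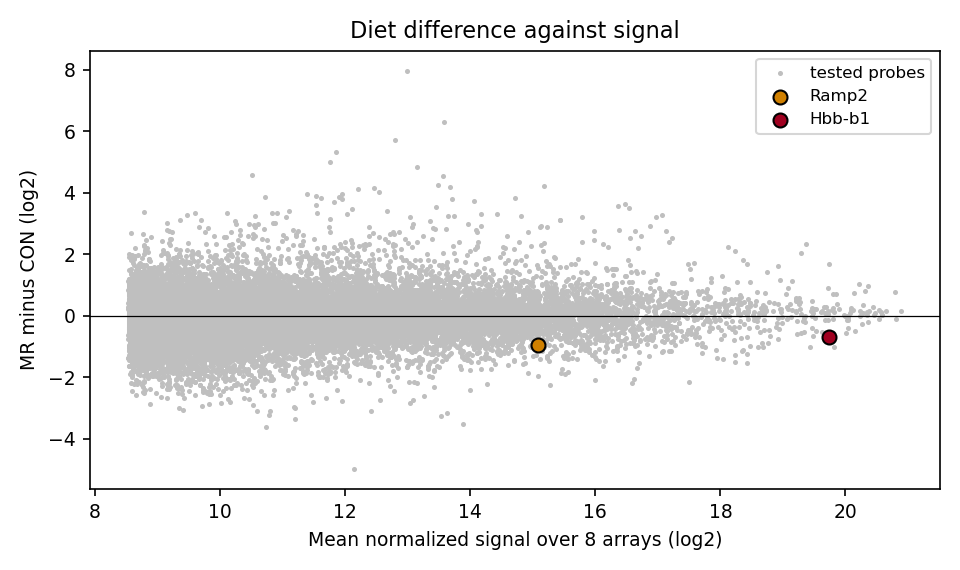
Difference of MR minus CON in log2 units (vertical axis) against the mean log2 signal over 8 arrays (horizontal axis) for the 16114 tested probes in grey, with Ramp2 and Hbb-b1 as large points. Ramp2 lies at -0.94 and Hbb-b1 at -0.70, the second near the bright end of the axis.

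When each array was omitted in turn, the difference of Ramp2 ran from -1.15 without CON replicate 2 to -0.72 without MR replicate 4, and its limma adjusted p from 0.0701 to 0.303. Array weights, which count arrays that fit the model poorly for less, gave -1.23 and a call at limma adjusted p = 0.0443. That weighted fit called 1429 of 16114 tested probes, against 345 in the main fit. For Hbb-b1 the difference was lowest, at -0.93, without CON replicate 1 and highest, at -0.52, when CON replicate 3 was left out, with limma adjusted p from 0.169 to 0.427. The sign stayed negative for both genes in all 15 other fits made.

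**Figure D3:**
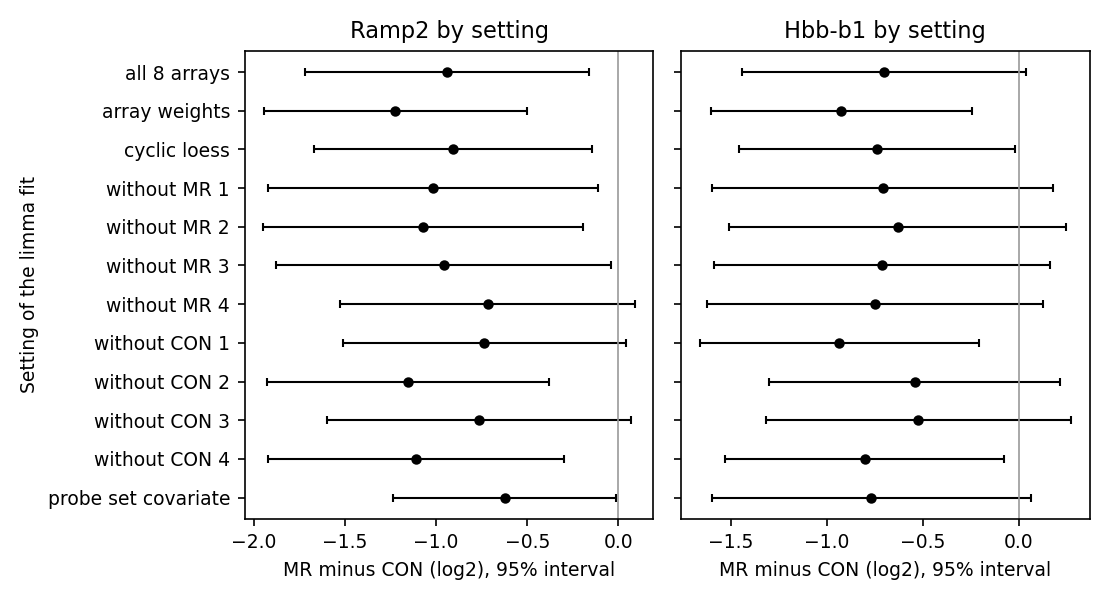
Difference of MR minus CON in log2 units with limma's 95% confidence interval (horizontal axis) for Ramp2 (left) and Hbb-b1 (right) under 12 settings of the fit (vertical axis). All points lie below 0, and the interval of Hbb-b1 reaches past 0 in the topmost setting but not under array weights or cyclic loess.

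The question whether both genes rise and fall together over the arrays was asked of the levels first. Over the 8 arrays Pearson's r between them was 0.301 (two-sided exact permutation p = 0.493 over 40320 pairings, adjusted over 2 relations 0.493). Spearman's rho was 0.0238 (exact permutation p = 0.977, adjusted 0.977). Both genes lay on the same side of their 8-array mean in 5 of 8 arrays. In 4 of those 5, both were low in an MR array; the other was CON replicate 3, where both were high.

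The shared diet difference is part of that value, so the arrays were next set against the mean of their own diet. The diet-centred r was -0.307 (two-sided exact permutation within diets, p = 0.373 over 576 pairings, adjusted over 2 relations 0.493). The diet-centred rho was -0.333 (exact permutation p = 0.372, adjusted 0.743). Both deviations had the same sign in 4 of 8 arrays, 2 of 4 in MR and 2 of 4 in CON.

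Single arrays show where the genes parted. In MR replicate 2, Ramp2 was the highest of its diet and Hbb-b1 the lowest, with deviations from the MR mean of 0.39 and -0.21. In MR replicate 4 it was the reverse, with -0.67 for Ramp2 and 0.15 for Hbb-b1. CON replicate 1 had the highest Ramp2 of all arrays, 0.61 above the CON mean, and the lowest Hbb-b1 of its diet, at -0.70 from that mean. CON replicate 2 had the lowest Ramp2 of its diet at -0.64, and Hbb-b1 at 0.47 above the mean. In CON replicate 3 both were high, by 0.53 each, and in CON replicate 4 both were low, at -0.51 and -0.31.

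Neither relation passed the test, and neither sign was stable. Without CON replicates 1 and 3, the 2 arrays farthest from the median of Ramp2, r was 0.159 over levels (exact permutation p = 0.704) and -0.453 for diet-centred values (exact permutation p = 0.104). When each array was omitted in turn, r over levels was -0.0887 when CON replicate 3 was omitted and 0.586 when CON replicate 1 was omitted, the lowest and highest of 8 values. The diet-centred r was -0.755 and 0.125 when the same arrays were omitted, again the lowest and the highest. A common rise and fall was thus not detectable over these 8 arrays, and a p that misses the threshold does not show that the genes are unrelated. The labels do not say whether the arrays are independent.

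**Figure D4:**
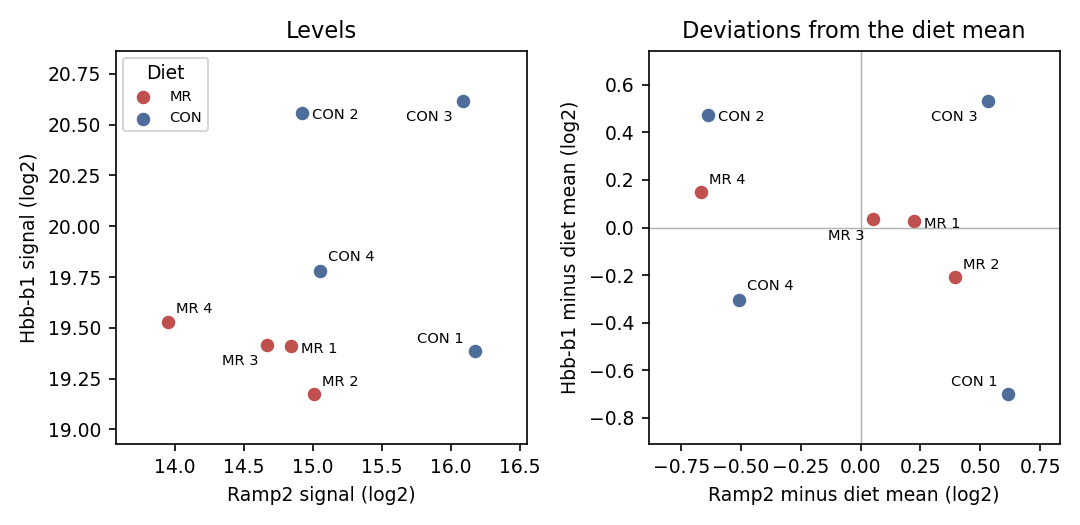
Hbb-b1 (vertical axis) against Ramp2 (horizontal axis) on the 8 arrays, as log2 signals on the left and as deviations from the mean of the diet on the right, with MR and CON in different colours and each array labelled. The points on the left form no line (r = 0.301), and on the right CON replicates 1 and 2 lie in opposite corners (r = -0.307).

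Some arrays stand apart in these data, and the genes were set beside those features. CON replicate 1 lay more than 2 log2 units from all other arrays in 371 probes, where the MR arrays did so in 21 to 84 and the other CON arrays in 9 to 42. In 88 probes CON replicate 2 went with the MR arrays, all 5 of them lying at least 2 log2 units above every other CON array. Without CON replicate 1 the diet difference was -0.74 for Ramp2 and -0.93 for Hbb-b1. Without CON replicate 2 it was -1.15 for Ramp2 and -0.54 for Hbb-b1.

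In a further set of 46 probes the signal was higher by over 2 log2 units in MR replicate 2 and CON replicates 1 and 3 than in the other 5 arrays, and 0 tested probes were as far below. The set's mean signal was 8.73, 13.38, 8.54 and 9.14 in MR replicates 1 to 4, against 14.68, 9.30, 14.61 and 8.77 in CON replicates 1 to 4. Neither Ramp2 nor Hbb-b1 belongs to it. Ramp2 was highest of MR in MR replicate 2 and highest of CON in CON replicates 1 and 3, so that its highest arrays in each diet were those of the set. Hbb-b1 was lowest of MR in MR replicate 2, and in CON it was lowest in replicate 1 and highest in replicate 3. With the mean of the set as a covariate, a fit added after the data had been seen, the difference of MR minus CON was -0.62 for Ramp2 (interval -1.24 to -0.01, limma adjusted p = 0.227), against -0.94 without it. For Hbb-b1 it was -0.77 (interval -1.60 to 0.06, limma adjusted p = 0.264), against -0.70. The arrays fall into separate clusters on this set, so no correlation is given. The probes of the set carry no gene name here, and their part in the result was not tested.

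**Figure D5:**
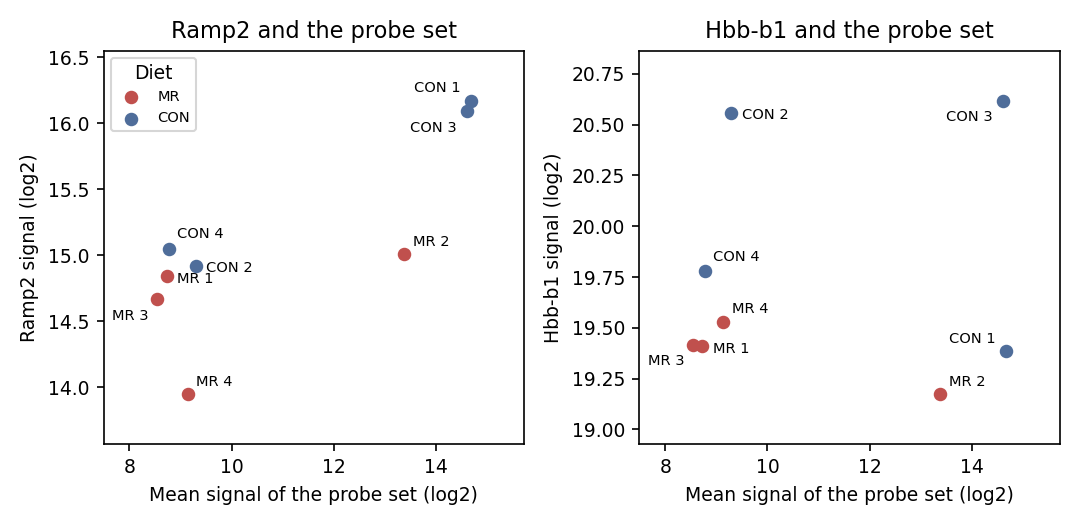
Log2 signal of Ramp2 (left) and Hbb-b1 (right) against the mean log2 signal of the 46 probes high in MR replicate 2 and CON replicates 1 and 3 (horizontal axis), for the 4 MR and 4 CON arrays. In each diet the arrays high on the set are highest for Ramp2, while for Hbb-b1 MR replicate 2 is the lowest array and CON replicates 1 and 3 are the extremes of their diet.

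Other genes of blood, vessels and fat could be followed only in small part. Of 94 genes on lists of red cells, endothelium, adrenomedullin signalling, vessel wall, leukocytes and platelets, and white adipocytes, 5 had a named probe, Ramp2 and Hbb-b1 among them. The list of 24 red cell genes was read by Hbb-b1 alone, and the 23 endothelial and the 12 adrenomedullin signalling genes by Ramp2 alone, so that the ligand Adm and the receptor Calcrl had no named probe. None of the 11 vessel wall genes had a named probe. Of the 13 genes on the adipocyte list, 1 had a named probe, the transcription factor Cebpb. Cebpb was at 16.27 ± 0.24 in MR and 16.42 ± 0.36 in CON (SD, n = 4 each), and 1 gene does not check the tissue label. The leukocyte genes were Itgae, the integrin alpha E chain of resident lymphocytes, and Rnase3, a ribonuclease of eosinophils. Itgae was at 12.11 ± 0.28 in MR and 11.31 ± 0.65 in CON, and Rnase3 at 11.04 ± 0.69 in MR and 11.68 ± 0.47 in CON (SD, n = 4 each). Of these 5 genes 0 passed at a limma adjusted p under 0.05, and 2, Ramp2 and Itgae, had an unadjusted limma p under 0.05, beside 23.9% of all tested probes.

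Likeness to the other named genes was read as Pearson's r over the 8 arrays, among the 11 other genes with a named, tested probe. Ramp2 was most like Rnase3 (r = 0.811), then Atf4, a transcription factor of the response to amino acid shortage (0.637), and then Hbb-b1 (0.301). It was least like Rtn3, a reticulon of the endoplasmic reticulum (-0.637), and Lypd4 (-0.558). After centring on the diets, the r to Ramp2 was 0.724 for Rnase3, 0.373 for Atf4, -0.141 for Rtn3 and -0.399 for Lypd4. Kcnip2, a potassium channel interacting protein, went the other way, with -0.192 over levels and 0.699 after centring. Another Kcnip2 probe had a mean of 8.36, below the intensity filter, and was not compared. Rnase3 had 11.33, 11.88, 10.42 and 10.52 in MR replicates 1 to 4, against 11.77, 11.13, 12.26 and 11.57 in CON replicates 1 to 4. Like Ramp2, it was highest of MR in replicate 2 and lowest of CON in replicate 2. In MR it was lowest in replicate 3, and Ramp2 in replicate 4. As for Ramp2, its highest arrays in each diet were those of the 46-probe set, MR replicate 2 and CON replicates 1 and 3. Whether that set has a part in the likeness was not tested.

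Hbb-b1 was most like Cebpb (r = 0.443), then Ramp2 (0.301) and Rnase3 (0.265), and least like Rtn3 (-0.606) and Kcnip2 (-0.500). After centring on the diets the values were 0.363 for Cebpb, -0.154 for Rnase3, -0.0799 for Rtn3 and 0.0298 for Kcnip2. The centred values put Tpra1 highest (0.734, against 0.143 over levels) and Atf4 lowest (-0.710, against 0.0077 over levels). Kcnip2 and Tpra1 were named for their centred values after these had been seen. Among all other tested probes, over levels, 33.0% had a higher r to Ramp2 than Hbb-b1 had, and 27.4% had a higher r to Hbb-b1 than Ramp2 had. After centring on the diets these shares were 71.9% and 76.1%. All of these values rest on the same 8 arrays and are a description, with no test.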

How the data were processed

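Per the labels' protocols, TriReagent and a purification column yielded total RNA, from which cRNA carrying digoxigenin was made for chemiluminescent single-colour arrays. The authors deposited 1 normalized value per probe and array, taken here as log2 signals; the log base is not stated, and base 2 is an assumption that rests on their range, 4.90 to 21.29. Sorted values of the 8 arrays differ by at most 0.00526 from their mean, the form quantile normalization leaves. How the authors corrected background is not given in the sources at hand. Another deposited table holds 60 columns of scanner values under codes that match no sample label; these were not used, so signal over background was not assessed, and the number of arrays limits the precision. Its probe identifiers, which the authors deposited beside the values, were matched without versions to RefSeq's GRCr8 gene table and named 35 probes of 34 genes, 34 by accession and 1 by synonym.

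Probes with a mean above the 40th percentile (8.53) were tested with limma 3.58.1 in R 4.3.3 (lmFit, eBayes with trend, no covariate) and Benjamini-Hochberg adjustment. The code of the fit was tried on simulated data with independent noise and a change larger than that of either gene. That trial does not bear on how the fit behaves on these arrays. Exact permutation tests (Python 3.11.15) enumerated all pairings of the arrays, or all within diets. Alternatives were no filter, cyclic loess, no trend, robust estimation, array weights, a replicate block, leaving out each array, and for r also a linear scale and normal scores. Named genes were the members, listed genes with a named probe, and for each member the 3 most and 2 least alike named genes by r. Members and lists were chosen with earlier results of these data known. Same-numbered arrays did not deviate together (correlations -0.0850, -0.254, -0.0804 and 0.105), so the numbers were not treated as pairs.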

Additional observations from a re-analysis of the deposited data

Results flagged for a closer look

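Within a group of 4 arrays, the distance of the outermost array to its neighbour was divided by the group's range, for 20 groups in all; chance sets about 1 in 20 apart by this measure, and here it was 2. In CON, Itgae gave 0.867, because CON replicate 4 was at 10.35 and the remaining CON arrays at 11.56 to 11.75. The count of probes that set a single array over 2 log2 units away from the 7 others gave 0.909 in CON, where CON replicate 1 had 371 of them and the remaining CON arrays 9 to 42. Neither Ramp2 nor Hbb-b1 had an array this far out: the ratios were 0.678 in MR and 0.105 in CON for Ramp2, and 0.657 in MR and 0.319 in CON for Hbb-b1.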

How the results depend on the processing

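The covariate was added after the data were seen, and all other settings were planned. Of 7 alternative fits on all 8 arrays, the 6 other than array weights left Ramp2 uncalled, and array weights gave -1.23 with a call; Hbb-b1 was uncalled in all 7, though its 95% interval excluded 0 under cyclic loess, robust estimation and array weights. Leaving out 1 array gave -1.15 to -0.72 for Ramp2 and -0.93 to -0.52 for Hbb-b1, with no call. The 345 called probes became 147 without the intensity filter, 103 without a trend, 1429 with array weights, 20 with the probe set covariate, and 0 to 1337 with 1 array left out (1337 without CON replicate 2, 0 without MR replicate 2, where limma's unadjusted p was under 0.05 in 3250 probes). The replicate block gave 0 called probes in limma, with 3465 at an unadjusted p under 0.05, and differences of -0.94 for Ramp2 (limma adjusted p = 0.160) and -0.70 for Hbb-b1 (0.304); among the 8 arrays, 2 were most alike to the array of the same number in the other diet. The correlation of both genes kept its sign under cyclic loess, a linear scale and normal scores, over levels (0.259 to 0.341) and diet-centred (-0.442 to -0.192), and missed the threshold in all of these. With 1 array left out it ran from -0.0887 to 0.586 over levels, turning negative without CON replicate 3, and from -0.755 to 0.125 diet-centred, turning positive without CON replicate 1. Settings that add a term or drop an array leave fewer degrees of freedom. Why the results changed between settings was not tested.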

Other observations

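Unnamed probes far outnumber the 11 other named genes with a tested probe, and some followed Ramp2 more closely than any of these did. Of 16113 other tested probes, 74 had an r of at least 0.9 to it over the 8 arrays and 77 an r of -0.9 or lower; for Hbb-b1 the numbers were 5 and 3. After centring on the diets they were 69 and 55 for Ramp2, and 56 and 42 for Hbb-b1. The transcripts most like Ramp2 were rCG62390 (r = 0.987) and rCG34729 (0.983), and the least like it were rCG37977.1 (-0.982) and rCG45198 (-0.972). The transcript rCG62390 was at 10.97 ± 0.46 in MR and 12.02 ± 0.71 in CON, and rCG37977.1 at 15.38 ± 0.43 in MR and 14.45 ± 0.49 in CON (SD, n = 4 each). For Hbb-b1 the most alike were rCG47113.1 (0.956) and rCG56403 (0.921), and the least alike rCG54405 (-0.909) and rCG32193 (-0.906). Values this high are selected from 16113 probes on 8 arrays and were not tested.

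Among the 102 other probes as bright by mean as the dimmest rank of Hbb-b1, 1 had an r of at least 0.9 to Hbb-b1 over levels and 3 had one after centring on the diets, with a median r of -0.0017 over levels. None of these probes has a gene name here, so whether other haemoglobin chains are among them is not known.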
